A study of Homo sapiens with 4 samples.

Results

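The genes described here build the machinery that brings new proteins into the endoplasmic reticulum (ER), trims and glycosylates them there, and loads them into vesicles for export. The list names 42 human genes, grouped by function and drawn up with earlier results of these data known: the signal recognition particle (SRP) and its receptor, the Sec61 translocon, the translocon-associated protein complex (TRAP), signal peptidase, oligosaccharyltransferase, the COPII coat and a pair of cargo receptors. A gene is represented by the probe set that carries its symbol alone and has the highest mean log2 intensity over the arrays, which gave values for 41 of them among 18377 genes measured. SEC61G, the small subunit of the translocon, has no such probe set and is not analysed here.

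The measurements come from 4 Affymetrix whole-transcript arrays of MOLM-14, an established human acute myeloid leukemia line grown in RPMI1640 with fetal bovine serum. The control group is 2 samples given the solvent DMSO, and the treated group is 2 samples given 2 µM DZNep, both for 24 h. DZNep is 3-deazaneplanocin A, an inhibitor of S-adenosylhomocysteine hydrolase that is widely used to deplete the histone methyltransferase EZH2. The labels call the samples biological replicates but do not say that they came from separate cultures. The p-values therefore describe the spread among these arrays alone, part or all of which may be technical. All samples are 1 cell line, so what is described holds for that line, dose and time.

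Proteins bound for secretion or for membranes carry a signal sequence that SRP recognises as it leaves the ribosome. SRP docks at its receptor on the ER membrane, the chain threads through the Sec61 channel, signal peptidase removes the signal sequence, and oligosaccharyltransferase attaches a preassembled sugar tree to asparagine residues. Folded cargo then leaves in vesicles whose coat, COPII, is built by the GTPase SAR1 and the subunits SEC23, SEC24, SEC13 and SEC31. In cells with a heavy secretory load, the unfolded protein response, through the transcription factors ATF6 and XBP1, is known to raise many of these genes.

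The arrays were alike in overall brightness, with median log2 intensities of 6.99 and 7.07 for DMSO and of 7.07 and 7.05 for DZNep. The 9 myeloid markers measured lay between 7.50 and 12.82 in log2 intensity, and CD33 is not analysed here. Of 9 markers of T, B, epithelial, fibroblast, liver and endothelial cells, 8 lay at or below 7.93, and PECAM1, an endothelial marker that monocytes also carry, lay between 9.64 and 10.71. Precision is limited throughout by having 2 arrays a group.

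With DZNep, 18 of the 41 genes fell and none rose at an adjusted p of 0.05 (limma, a linear model that pools the spread over genes, with p-values adjusted by Benjamini-Hochberg over all 18377 genes). Over all genes tested, 6.68% were lower and 3.62% were higher at this threshold. The median log2 fold change of the 41 genes was −0.35, against 0.02 for all genes tested. Values below 0 were seen for 36 of the 41 genes and for 8188 of all 18377. Both DZNep arrays lay below both DMSO arrays for 30 of the 41 genes and above them for 2, where the same was true of 23.9% and 25.9% of all genes. Markers of cell type moved with the treatment too. Of the 9 myeloid markers, the receptor gene FLT3 fell (log2 fold change −0.94, limma adjusted p = 0.000535). LYZ and CSF1R rose (0.53 and 0.47, limma adjusted p = 0.0114 and 0.0128). The other 6 did not pass: CD68 had −0.38, ITGAM −0.22, MPO −0.15, SPI1 0.06, PTPRC 0.12 and CEBPA 0.36. The median of the 9 stayed between 9.51 and 9.76 on the 4 arrays. Of the 9 markers of other cell types, PECAM1 rose, from 9.76 and 9.64 with DMSO to 10.71 and 10.67 with DZNep (1.99-fold, limma adjusted p = 0.000369). It has a second probe set, which is not described here. The median of the 9 markers of other cell types lay between 6.08 and 6.46. The part of these changes in the fall of the 18 genes was not tested. In RNA from whole cultures, less RNA per cell and fewer cells that make it cannot be told apart.

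The falls were modest in size. The 18 genes had log2 fold changes from −1.22 to −0.40, standard errors from 0.10 to 0.22 and limma adjusted p from 0.000619 to 0.0472, and 4 of them (SEC11C, MCFD2, SEC24D and LMAN1) were at least 2-fold lower. When the test asked for a change beyond 1.5-fold (limma's treat), none of the 41 genes passed, and the lowest adjusted p was 0.0745, for MCFD2. Of all 18377 genes only 73 passed as lower, so a count of 0 in 41 says little about the list. The DMSO arrays also differed from each other: replicate 1 read above replicate 2 for 37 of the 41 genes, by a median of 0.21 on the log2 scale, and for 8702 of the 18377 genes on the array, with a median of −0.01. For the 18 genes that fell, this gap ran from 0.14 to 0.86, and its part in the result was not tested.

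**Figure D1:**
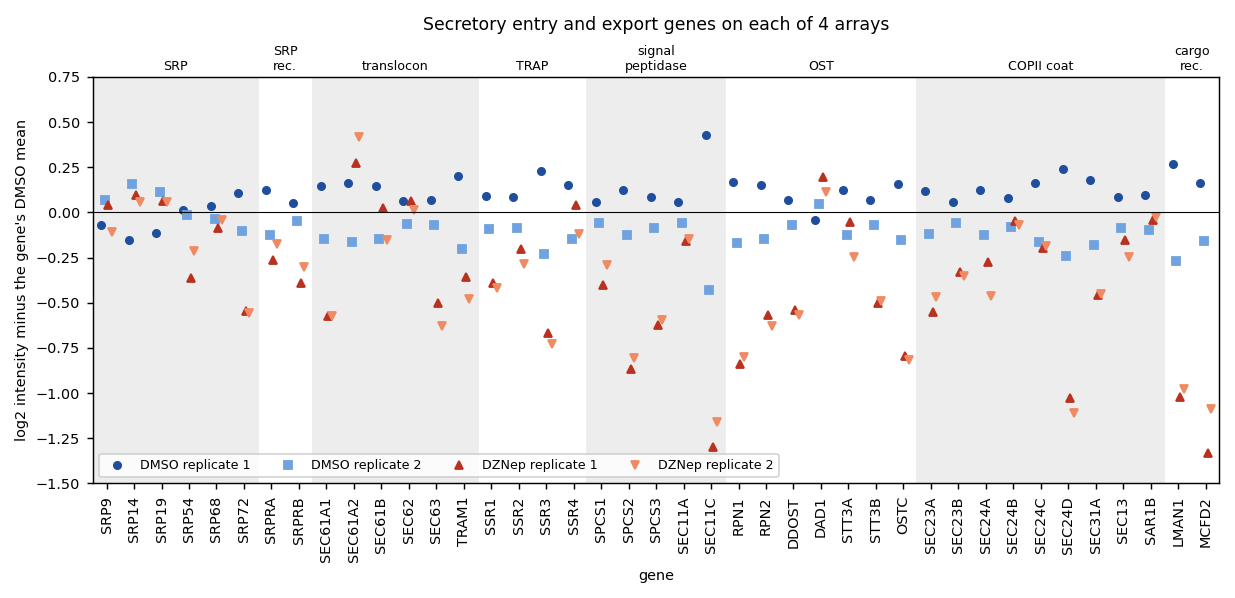
Log2 intensity of the 41 genes on each of the 4 arrays, minus the mean of the gene's DMSO arrays (y axis), by complex (x axis; OST, oligosaccharyltransferase; rec., receptor). Blue circles and squares are DMSO replicates 1 and 2 and red and orange triangles DZNep replicates 1 and 2; the DZNep arrays lie below both DMSO arrays for 30 genes, and DMSO replicate 1 lies above replicate 2 for 37.

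**Figure D2:**
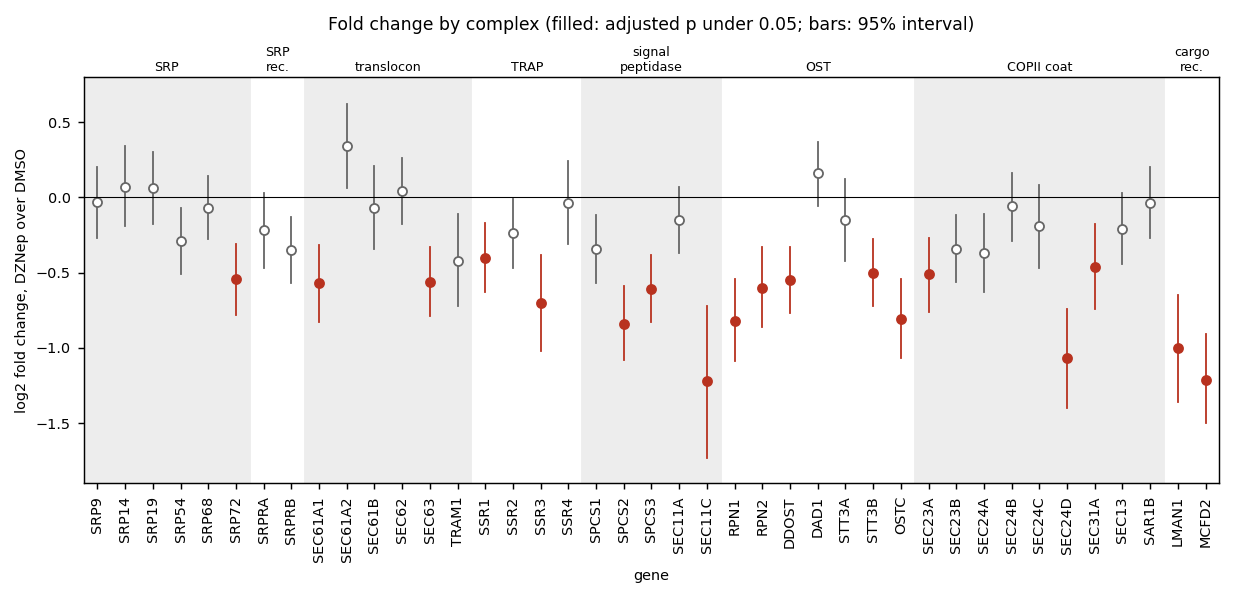
Log2 fold change of DZNep over DMSO (y axis) with its 95% interval from limma for each of the 41 genes (x axis), by complex. Filled red points are the 18 genes with an adjusted p under 0.05, which include 5 of 7 oligosaccharyltransferase genes and 1 of 6 SRP genes; open points are the other 23.

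The complexes differed in how many of their genes passed. By order of the pathway, the count of genes that fell was 1 of 6 for SRP, 0 of 2 for its receptor, 2 of 6 for the translocon, 2 of 4 for TRAP, 3 of 5 for signal peptidase, 5 of 7 for oligosaccharyltransferase, 3 of 9 for the COPII coat and 2 of 2 for the cargo receptors. The median log2 fold changes in the same order were −0.05, −0.28, −0.24, −0.32, −0.61, −0.55, −0.34 and −1.10, and quantile or cyclic loess normalization turned the first to 0.05 or 0.02. The subunits that cut and glycosylate the chain thus had lower medians than those that target it, a difference that was not tested.

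Promoter sequences were searched for the elements through which the unfolded protein response acts on genes of the ER, since 18 of these genes fell together. RefSeq windows of the GRCh38.p14 build, each from 250 bases before to 50 bases after a transcription start, were at hand for 35 of the 41 genes, some with several starts. On both strands, the search covered the ER stress element (CCAAT and CCACG with 9 bases between them), its shorter second form (ATTGG and CCACG with 1 base between them), the XBP1-type element TGACGTGG, and the amino acid response element (TGATG and AAT with 1 base between them). The letters CCACG lie in the ER stress elements and in the reverse strand of TGACGTGG, so these matches can overlap.

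TGACGTGG was present in 6 of the 35 genes, or 17.1%, against 1.12% of the 14210 tested genes with a window and 0.927% of all 27305 genes in the promoter table. The 6 were SRP19, SEC62, SSR3, SSR4, SEC23A and SEC24A, and in SEC23A the match spans the start itself. Of the 18 genes that fell, 15 had a window, and 2 of these 15, SSR3 and SEC23A, carried the element, or 13.3%. The other 4 matches were among the 20 genes with a window that did not pass the test, or 20.0%. Of the 159 tested genes with this element, 18 fell, or 11.3%, against 6.92% of the tested genes with a window. The stretches around 5 of these matches are shown, in the direction of the gene, with the element in capitals. They lie at chr5:112861164-112861193 (SRP19, plus strand), chr3:169966779-169966806 (SEC62, plus strand), chr3:156554148-156554177 (SSR3, minus strand), chrX:153794528-153794557 (SSR4, plus strand) and chr5:134648595-134648624 (SEC24A, plus strand).
SRP19: aagtcttcatgCCACGTCAgagactagaga
SEC62: ccctcctcgctCCACGTCAgagggaacc
SSR3: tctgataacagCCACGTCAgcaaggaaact
SSR4: tcagggaggggCCACGTCAgtgctgccaga
SEC24A: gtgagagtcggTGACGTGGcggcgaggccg
The element reads on the gene's own strand in SEC24A and on the opposite strand in the other four.

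The ER stress element with its full spacing was found in none of the 35 genes, nor was its second form, nor a copy with 1 mismatch. Of the 14210 tested genes with a window, 0.134% carried the full element, 0.12% the second form and 2.22% a copy with 1 mismatch. At such shares, a count of 0 in 35 says little about the list. The full element was present in 19 tested genes. Of those 19 genes 12 fell, or 63.2%, against 6.92% of the tested genes with a window. The amino acid response element was found in SRPRB alone, 1 of 35 genes or 2.86%, against 0.894% of the tested genes. For comparison, the ER stress element is shown in capitals, with its spacer in lower case, in HSPA5 and XBP1, both of which fell. The stretches lie at chr9:125241380-125241420 (HSPA5, the main ER chaperone, minus strand) and chr22:28800592-28800632 (XBP1 itself, minus strand).
HSPA5: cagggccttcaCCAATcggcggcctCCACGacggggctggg
XBP1: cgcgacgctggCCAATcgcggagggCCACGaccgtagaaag
The letters CCACG alone were present in 28 of the 35 genes, or 80.0%, against 51.1% of the tested genes. A match describes the letters of the window and not binding by a factor. Whether the unfolded protein response had a part in the fall of these genes was not tested.

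Among the subunits of SRP, the ribonucleoprotein that catches the signal sequence, SRP72 was the only gene called. SRP72, which with SRP68 forms the large protein pair of the particle, read 10.65 and 10.44 in log2 intensity with DMSO and 10.00 and 9.99 with DZNep. It was 1.46-fold lower (log2 fold change −0.54, SE 0.10, limma adjusted p = 0.011). The DZNep arrays were nearly level with each other and both below the DMSO arrays.

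Its partner SRP68 read 10.37 and 10.30 against 10.25 and 10.29, a log2 fold change of −0.07 with a 95% interval from −0.28 to 0.14. SRP54, the GTPase subunit that binds the signal sequence, had −0.29 (limma adjusted p = 0.106), with both DZNep arrays below the DMSO arrays. SRP9 and SRP14, which form the Alu-domain pair that slows translation, had −0.03 and 0.07, and SRP19, an assembly subunit, had 0.06. For these 3 genes the groups overlapped. A second probe set of SRP9 gave a log2 fold change of 0.00.

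The receptor that receives SRP at the membrane did not pass the test for either subunit. SRPRA, a GTPase subunit, read 10.54 and 10.29 with DMSO and 10.15 and 10.24 with DZNep. Its log2 fold change was −0.22, with a limma adjusted p of 0.302. SRPRB, the membrane anchor, read 9.49 and 9.39 with DMSO and 9.05 and 9.14 with DZNep, which gives −0.35 on the log2 scale and a limma adjusted p of 0.0544. The groups did not overlap for either gene. SRPRB passed with an intensity trend in the variance model (limma adjusted p = 0.0135) and without the dimmest 25% of genes (0.0404). Its log2 fold change was −0.39 without DMSO replicate 2.

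In the translocon, the channel subunit SEC61A1 and the Hsp40-type subunit SEC63 fell, and the rest did not pass. SEC61A1 encodes the pore-forming alpha subunit and read 10.53 and 10.24 with DMSO and 9.81 on both DZNep arrays, 1.49-fold lower (log2 fold change −0.57, SE 0.11, limma adjusted p = 0.0127). SEC63, which holds the chaperone HSPA5 at the inner mouth of the channel, read 12.32 and 12.18 with DMSO and 11.75 and 11.62 with DZNep, 1.48-fold lower (log2 fold change −0.56, SE 0.10, limma adjusted p = 0.00844). SEC63 no longer passed once DZNep replicate 2 was omitted, at −0.50 and a limma adjusted p of 0.0519.

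SEC61A2, the second alpha-subunit gene, had a value above 0. Its log2 intensities were 7.59 and 7.26 with DMSO and 7.70 and 7.84 with DZNep, a log2 fold change of 0.34 (SE 0.12, limma adjusted p = 0.131). Omitting DMSO replicate 1 gave 0.51, which passed as higher at a limma adjusted p of 0.0336, and omitting DMSO replicate 2 gave 0.18. The difference between the changes of the paralogs was not tested.

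The remaining translocon genes showed small or variable differences. SEC61B, the beta subunit, and SEC62, the partner of SEC63 in post-translational import, had log2 fold changes of −0.07 and 0.04 with overlapping groups. TRAM1, a membrane protein beside the channel, read 11.93 and 11.53 with DMSO and 11.37 and 11.25 with DZNep, a log2 fold change of −0.42 that missed the threshold (limma adjusted p = 0.0902). Omitting DMSO replicate 2 gave −0.62 with a limma adjusted p of 0.0132, and omitting DMSO replicate 1 gave −0.21 with 0.254. The translocon median went from −0.42 to −0.07 over the same pair of omissions.

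TRAP sits beside the channel and helps weak signal sequences open it, and its 4 subunits split evenly. SSR3, the gamma subunit, read 10.26 and 9.80 with DMSO and 9.36 and 9.30 with DZNep, 1.62-fold lower (log2 fold change −0.70, SE 0.14, limma adjusted p = 0.0142). SSR1, the alpha subunit, read 11.79 and 11.61 with DMSO and 11.31 and 11.28 with DZNep, 1.32-fold lower (log2 fold change −0.40, SE 0.10, limma adjusted p = 0.036). SSR1 no longer passed when DMSO replicate 1 (limma adjusted p = 0.0897), DZNep replicate 1 (0.147) or DZNep replicate 2 (0.223) was omitted, and under quantile (0.0807) or cyclic loess (0.0791) normalization or with 16 subtracted from the intensities (0.084). SSR2, the beta subunit, had −0.24 (limma adjusted p = 0.199) with groups that did not overlap, and SSR4, the delta subunit, had −0.04 with groups that did.

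Signal peptidase, the membrane complex that cuts off the signal sequence, fell for 3 of 5 genes, and both DZNep arrays lay below both DMSO arrays for all 5. SPCS2, an accessory subunit, read 10.96 and 10.71 with DMSO and 9.97 and 10.03 with DZNep, 1.79-fold lower (log2 fold change −0.84, SE 0.11, limma adjusted p = 0.00165). A second probe set of SPCS2 gave −0.87. SPCS3, another accessory subunit, read 10.54 and 10.37 with DMSO and 9.83 and 9.86 with DZNep, 1.52-fold lower (log2 fold change −0.61, SE 0.10, limma adjusted p = 0.00547). SPCS1, the third accessory subunit, had −0.34 and missed the threshold (limma adjusted p = 0.0623).

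The catalytic subunit of signal peptidase is encoded by a pair of paralogs, and the values of the pair differed. SEC11C read 9.65 and 8.79 with DMSO and 7.92 and 8.06 with DZNep, 2.33-fold lower (log2 fold change −1.22, SE 0.22, limma adjusted p = 0.00873). It ranked 61st from the lowest of 18377 log2 fold changes. Its DMSO arrays stood further apart than those of any other gene of the list, and omitting the first or the second of them gave −0.79 or −1.65, with the call kept in both. SEC11A read 9.56 and 9.44 with DMSO and 9.34 and 9.35 with DZNep, a log2 fold change of −0.15 with a 95% interval from −0.37 to 0.07. Whether the paralogs changed by different amounts was not tested.

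Oligosaccharyltransferase had the largest number of genes that fell. RPN1, the ribophorin that lies next to the catalytic subunit, read 10.87 and 10.53 with DMSO and 9.86 and 9.90 with DZNep, 1.76-fold lower (log2 fold change −0.82, SE 0.12, limma adjusted p = 0.00315). RPN2, the second ribophorin, read 10.88 and 10.58 with DMSO and 10.16 and 10.10 with DZNep, 1.51-fold lower (log2 fold change −0.60, SE 0.12, limma adjusted p = 0.0121). DDOST, a subunit of the core, read 10.40 and 10.26 with DMSO and 9.79 and 9.76 with DZNep, 1.47-fold lower (log2 fold change −0.55, SE 0.10, limma adjusted p = 0.00772). All 3 are shared by both forms of the enzyme, and their DZNep arrays agreed within 0.06 of each other.

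OSTC docks the STT3A form of the enzyme to the translocon. It read 10.32 and 10.01 with DMSO and 9.37 and 9.35 with DZNep, 1.75-fold lower (log2 fold change −0.81, SE 0.12, limma adjusted p = 0.00273). DAD1, a small core subunit first known as a defender against cell death, read 11.96 and 12.05 with DMSO and 12.20 and 12.12 with DZNep, a difference of 0.16 on the log2 scale with a limma adjusted p of 0.412. With SEC61A2 it was 1 of the 2 genes whose DZNep arrays both lay above both DMSO arrays.

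The catalytic subunit comes in 2 forms, and STT3B passed where STT3A did not. STT3B, which glycosylates sites that the co-translational enzyme skips, read 11.32 and 11.18 with DMSO and 10.75 and 10.76 with DZNep, 1.41-fold lower (log2 fold change −0.50, SE 0.10, limma adjusted p = 0.0121). Its call ended without DZNep replicate 1 (limma adjusted p = 0.0569) or replicate 2 (0.0508), with values of −0.49 and −0.50. STT3A, the co-translational form, read 11.73 and 11.48 with DMSO and 11.55 and 11.36 with DZNep, a log2 fold change of −0.15 with overlapping groups and a 95% interval from −0.42 to 0.12. The difference between them was not tested.

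The COPII coat had 3 genes that fell. Its log2 fold changes were below 0 for 9 of 9 genes, against 8188 of all 18377, and those of SEC24B and SAR1B were near 0 with overlapping groups. SEC24D, a cargo-binding subunit of the inner coat, read 10.05 and 9.57 with DMSO and 8.78 and 8.70 with DZNep, 2.10-fold lower (log2 fold change −1.07, SE 0.15, limma adjusted p = 0.00208). SEC23A, the inner-coat subunit that activates the SAR1 GTPase, read 9.10 and 8.86 with DMSO and 8.43 and 8.51 with DZNep, 1.43-fold lower (log2 fold change −0.51, SE 0.11, limma adjusted p = 0.0173). SEC31A, the outer-coat rod, read 10.97 and 10.61 with DMSO and 10.33 and 10.34 with DZNep, 1.38-fold lower (log2 fold change −0.46, SE 0.12, limma adjusted p = 0.0472). Only the call of SEC24D held when each array was left out in turn.

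SEC23A no longer passed when either replicate 1 was omitted, with limma adjusted p of 0.0536 for the DMSO array and 0.0787 for the DZNep array. For SEC31A, omitting DMSO replicate 1 gave −0.28 and a limma adjusted p of 0.114, and its call also ended with DZNep replicate 1 (0.0947) or replicate 2 (0.0856) omitted and under quantile (0.0806) or cyclic loess (0.0731) normalization or with 16 subtracted from the intensities (0.101). Without DMSO replicate 1 or DZNep replicate 1 the COPII coat had 1 gene that fell, and without DMSO replicate 2 it had 6.

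The other forms of these subunits gave smaller values. SEC24A, the closest relative of SEC24B, had −0.37 (limma adjusted p = 0.0798), and SEC24B and SEC24C had −0.06 and −0.19. SEC24C passed without DMSO replicate 2, at −0.36 (limma adjusted p = 0.0472), and was −0.02 without DMSO replicate 1. SEC23B, the paralog of SEC23A, had −0.34 (limma adjusted p = 0.0556) with groups that did not overlap. SEC13, the partner of SEC31 in the outer coat, had −0.21 (limma adjusted p = 0.296), and SAR1B, the GTPase that starts coat assembly, had −0.04 with a 95% interval from −0.27 to 0.20. No difference between paralogs of SEC23 or SEC24 was tested.

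The cargo receptors LMAN1 and MCFD2, which work as a pair to carry clotting factors V and VIII and other glycoproteins out of the ER, both fell. MCFD2, the calcium-binding partner, read 9.96 and 9.64 with DMSO and 8.47 and 8.71 with DZNep, 2.31-fold lower (log2 fold change −1.21, SE 0.13, limma adjusted p = 0.000619). LMAN1, the mannose-binding lectin of the pair, read 11.01 and 10.47 with DMSO and 9.72 and 9.76 with DZNep, 2.00-fold lower (log2 fold change −1.0, SE 0.16, limma adjusted p = 0.00413). MCFD2 ranked 66th and LMAN1 121st from the lowest of all 18377 log2 fold changes. Both DZNep arrays lay below both DMSO arrays for each gene, and no omission of an array ended either call.

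**Figure D3:**
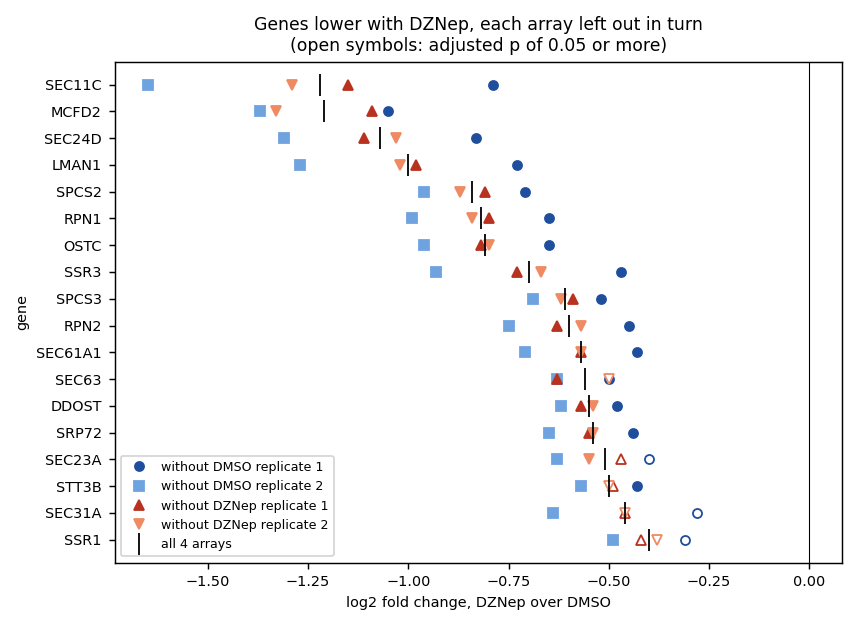
Log2 fold change of DZNep over DMSO (x axis) for the 18 genes that fell (y axis), with all 4 arrays (black bars) and with each array left out in turn (symbols; open where the limma adjusted p was 0.05 or more). Every value lies below 0, the values without DMSO replicate 1 (dark blue circles) are the smallest for all genes but SEC63, where they equal those without DZNep replicate 2, and SEC11C has the widest spread, from −1.65 to −0.79.

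Further genes of the same pathway were counted from lists of neighbouring steps, drawn up with earlier results of these data known. Over these lists 33 of 114 genes measured fell and 2 rose, with a median log2 fold change of −0.20; of all genes tested, 6.68% were lower and 3.62% higher, and each list's count is to be read against these shares. Among subunits of the same complexes that the list of 42 leaves out, 2 of 8 fell and 1 rose. MAGT1, the thiol oxidoreductase subunit that belongs to the STT3B form of oligosaccharyltransferase, was 2.33-fold lower (log2 fold change −1.22, limma adjusted p = 0.000276). It read 10.65 and 10.40 with DMSO and 9.33 and 9.29 with DZNep. A second probe set of MAGT1 is not described here. SEC31B, the paralog of SEC31A, read 8.21 and 8.08 with DMSO and 8.88 and 8.97 with DZNep, 1.71-fold higher (log2 fold change 0.78, limma adjusted p = 0.00141). TMEM258, a small oligosaccharyltransferase subunit, had −0.44 (limma adjusted p = 0.0304) and no longer passed when DMSO replicate 1 (0.0856), DZNep replicate 1 (0.19) or DZNep replicate 2 (0.0585) was omitted.

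Genes on either side of glycan transfer fell in part. Of 22 genes that make the sugar donor, 10 fell and none rose, with a median of −0.25: GFPT1, which starts hexosamine synthesis, at −1.04, ALG12, a mannosyltransferase, at −1.01 and ALG5, which makes the dolichol-linked glucose donor, at −0.82. Of 11 genes of glycan trimming and the calnexin cycle, 6 fell and none rose, with a median of −0.47: EDEM1, which marks misfolded glycoproteins for disposal, at −1.31, and the lectin chaperones CALR and CANX at −1.02 and −0.87. The limma adjusted p of the genes named from both lists lay between 0.000413 and 0.00797.

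The next 4 lists covered other cargo receptors, exit-site and fusion factors, the COPI coat and other routes into the membrane. In this order, the count of genes that fell was 3 of 20, 1 of 13, 2 of 10 and 2 of 17. Of 20 p24 proteins and other cargo receptors, 3 fell, namely TMED2 at −0.75, TMED5 at −0.66 and TMED10 at −0.63, all p24 family members. Of 13 exit-site and fusion factors, TFG fell, at −0.43 (limma adjusted p = 0.0418), a share of 7.69% that is near the 6.68% of all genes. Of 10 genes of the COPI coat, which runs traffic back to the ER, COPB1 and COPB2 fell, at −0.42 and −0.41. Of 17 genes of other insertion routes, EMC2, of the ER membrane protein complex, fell at −0.57 and GET1, of the tail-anchor receptor, at −0.46. TFG, COPB1, COPB2 and GET1 each missed the threshold, at limma adjusted p from 0.0584 to 0.254, once DMSO replicate 1 or a DZNep array was omitted. None of these 4 lists had a gene that rose, and their medians lay between −0.25 and −0.05.

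Stress sensors and transcription factors that act on this machinery moved unevenly, with 7 of 13 lower and 1 higher. XBP1 read 11.19 and 11.11 with DMSO and 10.30 and 10.29 with DZNep, 1.81-fold lower (log2 fold change −0.85, limma adjusted p = 0.000682), while ATF6 had 0.12 (adjusted p = 0.602). HSPA5 and DDIT3, the stress-induced factor CHOP, had −2.06 and −3.84, and the ER-stress kinase EIF2AK3 had −1.15 (limma adjusted p up to 0.000792). ATF4 had 0.36 (limma adjusted p = 0.0473), which ended when any 1 array was left out (0.0666 to 0.488). None of the 41 genes fell as far as HSPA5 or DDIT3.

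**Figure D4:**
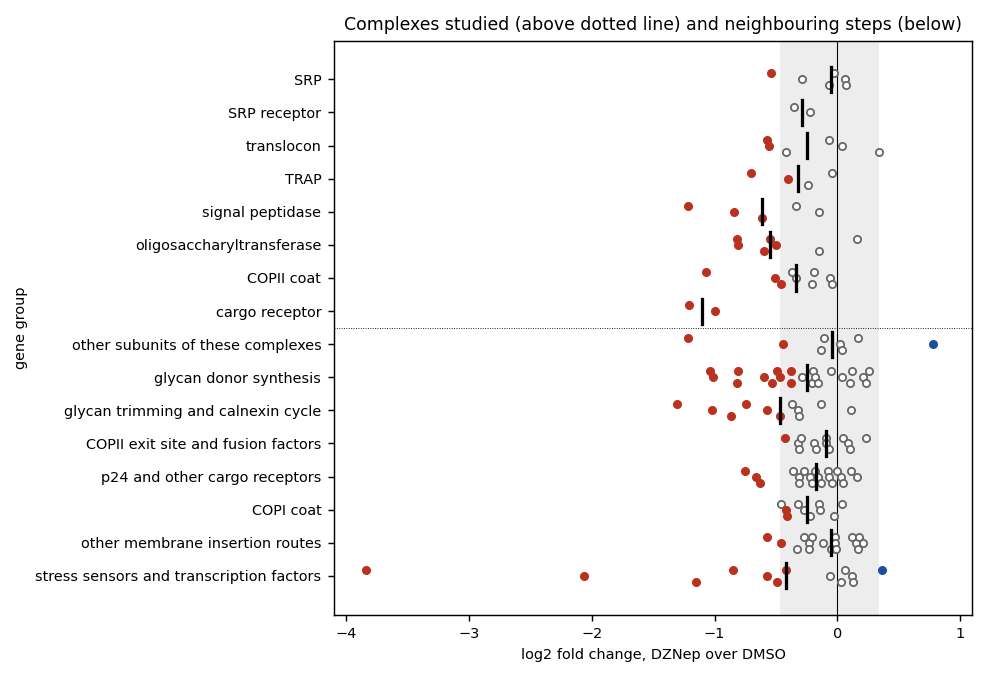
Log2 fold change of DZNep over DMSO (x axis) for the 8 complexes described (above the dotted line) and 8 lists of neighbouring steps (below it), 1 point a gene. Red and blue filled points are genes lower and higher at a limma adjusted p under 0.05, open points the rest, black bars the medians, and the grey band the 5th to 95th percentile of all genes tested, −0.46 to 0.33; the medians run from −1.10 for the cargo receptors to −0.04 for other subunits of the complexes.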

How the data were processed

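Total RNA was extracted with a column kit and labelled with biotin for Affymetrix whole-transcript arrays, per the labels' protocols. Per the submitters' processing notes the authors ran RMA, and the deposited files hold 1 linear intensity per probe set. Its version and settings and any genome build are not stated there. The lowest intensity was 18.1 to 18.5 on every array. An added constant, which is neither stated nor excluded, would shrink the folds of dim genes.

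Log2 values had been planned for, but linear ones were deposited, so log2 was taken with no pseudocount, further normalization or filter. Of 28869 probe sets, 19310 had 1 gene symbol in the platform annotation, which can be old, which left 18377 genes. The test was that of limma 3.58.1, run in R 4.3.3 (lmFit, eBayes without trend, group only, two-sided, 2 residual and 7.18 prior degrees of freedom). Benjamini-Hochberg adjustment ran over all genes, with a threshold of 0.05. An exact permutation test of 2 arrays against 2 cannot give a p under 0.333. The procedure was tested on simulated data with independent noise drawn from limma's own fitted variance model. Such data hold no shift shared by genes of an array, so the test does not bear on the gap between the DMSO arrays.

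All 42 genes are named, with values for each array where a gene passed; of each other list, up to 3 called genes with the largest change, or 1 where none passed, plus XBP1, ATF6, ATF4, DDIT3 and HSPA5. The myeloid markers are all named, and markers of other cell types where they passed. The genes and lists were chosen with earlier results of these data known. Deviations of same-numbered arrays correlated at −0.22 over genes, and the labels do not say that numbers mark pairs, so no pairing was used. Alternatives were a replicate block, filters, normalizations, a subtracted constant, variance models, array weights, probe set rules, treat and omitted arrays. Promoter windows are from RefSeq, GRCh38.p14.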

Additional observations from a re-analysis of the deposited data

How the results depend on the processing

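Every alternative kept the median log2 fold change of the 41 genes below 0, and none turned the sign of a called gene. Apart from treat, 13 of the 18 genes that fell (SRP72, SEC61A1, SSR3, SPCS2, SPCS3, SEC11C, RPN1, RPN2, DDOST, OSTC, SEC24D, LMAN1 and MCFD2) kept their call in all 17 alternatives, and 9 of the 23 others passed in at least 1. Under treat against 1.5-fold, 0 of the 41 genes passed, and of all 18377 genes 73 passed as lower and 37 as higher. With an intensity trend 25 genes of the list and 1670 genes of the array fell, SRPRB, SPCS1 and SEC23B among those added. The SRP receptor then had 1 gene that fell and the COPII coat 5. With the replicate block 20 genes of the list fell, TRAM1 and SEC24A added; with a crossed block, tried after seeing the data, the counts were 23 lower and 1 higher, and 1034 genes of the array were higher. When each array was left out in turn, between 734 and 1662 genes of the array were lower and between 336 and 776 higher, between 14 and 24 genes of the list were lower (15 without DMSO replicate 1, 24 without DMSO replicate 2), and between 0 and 1 was higher. Quantile normalization gave an SRP median of 0.05 and cyclic loess one of 0.02, and it ran from −0.09 to −0.02 with arrays left out. The translocon median ran from −0.42 to −0.07 with arrays left out. Under quantile normalization the TRAP median was −0.20 and that of signal peptidase −0.51. The causes of these shifts were not tested.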
